A study of Mus musculus with 2 samples.

Results

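Genes of meiotic prophase were examined in primordial germ cells (PGCs) of the mouse, from which oocytes or sperm later arise, taken at embryonic day 9.5 (E9.5). The set was 41 gene symbols chosen by function: components of the synaptonemal complex and chromosome axis, meiotic cohesin, recombination factors and regulators of meiotic entry. Of these symbols, 40 had a row among the 18877 genes of the deposited expression table. Mei1, which is needed for meiotic DNA break formation, had no row and was not analysed here. Both libraries, replicate 1 and replicate 2, came from C57BL6 embryos and form the only group. The embryos carried no stated allele or treatment, and the PGCs were sorted by the surface antigen SSEA1. For sorting, the study's methods give either flow cytometry with antibodies to CD61 and SSEA1 or magnetic beads with the SSEA1 antibody. The study's methods describe the embryos as female and the tissue as embryonic gonads. Y-linked transcripts were nevertheless found in both libraries, with 362 and 93 reads for Ddx3y and 137 and 37 reads for Uty.

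Meiosis is the division programme by which germ cells reduce their chromosome number. In its prophase, sister chromatids are held along a protein axis by meiosis-specific cohesin, programmed DNA breaks are made and repaired on the homologous chromosome, and the synaptonemal complex joins the paired axes like a zipper. In the mouse, female germ cells normally enter this programme after they have reached the gonad. Retinoic acid can induce the entry factor Stra8. At E9.5, PGCs are still migrating and dividing by mitosis.

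Expression is given as TPM (a relative abundance corrected for gene length), so levels of different genes can be set side by side as far as the annotated lengths hold. The read counts behind the values were recovered from the table and came to 15912467 for replicate 1 and 5458695 for replicate 2, which was thus 2.92 times shallower. Values with few reads carry exact Poisson 95% intervals, which cover counting error only. All 10 markers of early PGCs that were checked, among them Dppa3 and Nanos3, were at 1 TPM or more in each library, with means of 6.98 to 21079 TPM. Of the markers of other cells, 5 of 6 erythroid genes also were (summed 3983 and 3765 TPM), as were 3 of 4 macrophage genes (19.4 and 9.53 TPM), 2 of 5 gonadal somatic genes (3.91 and 3.99 TPM), and 1 each of 5 endothelial (12.9 and 11.002 TPM), 5 mesenchymal (2.37 and 3.95 TPM) and 4 visceral endoderm genes (3.397 and 9.23 TPM). Lum, a mesenchymal gene, was at 0 in both libraries. Emcn (endothelial), C1qb (macrophage), Afp (visceral endoderm) and Nr5a1 (gonadal) were at 2.12, 1.16, 0.843 and 0.0496 TPM in replicate 1 and at 0 in replicate 2. The highest genes of these lists were Hba-x (erythroid, 2331 and 2065 TPM), Fcer1g (macrophage, 10.95 and 6.16 TPM) and Pecam1 (endothelial, 8.23 and 9.99 TPM). For the others they were Rbp4 (visceral endoderm, 1.30 and 5.77 TPM), Emx2 (gonadal, 1.40 and 1.79 TPM) and Col3a1 (mesenchymal, 1.06 and 1.40 TPM). The part of these cells in the meiotic values was not tested. In such bulk samples, fewer cells with a transcript and less transcript per cell cannot be told apart.

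Expression of meiotic prophase genes in E9.5 PGCs ranged from 3 genes without a read to Syce2 at 1371 ± 74.7 TPM (SD, n = 2). A level of 1 TPM or more in each library was reached by 28 of 40 genes (70.0%), compared with 60.0% of all genes in the table, and 10 TPM or more by 12 genes (30.0%), compared with 25.3%. The genes without a read made up 7.50%, compared with 7.81%. As a set, the meiotic genes were thus detected at a share near that of the table. On the log2(TPM + 1) scale, the set had medians of 2.15 and 1.96 in replicates 1 and 2 (2.06 ± 0.133, SD, n = 2), where the median of all genes was 1.89 and 1.85. Members of different roles, and members of the same complex, differed widely in level.

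**Figure D1:**
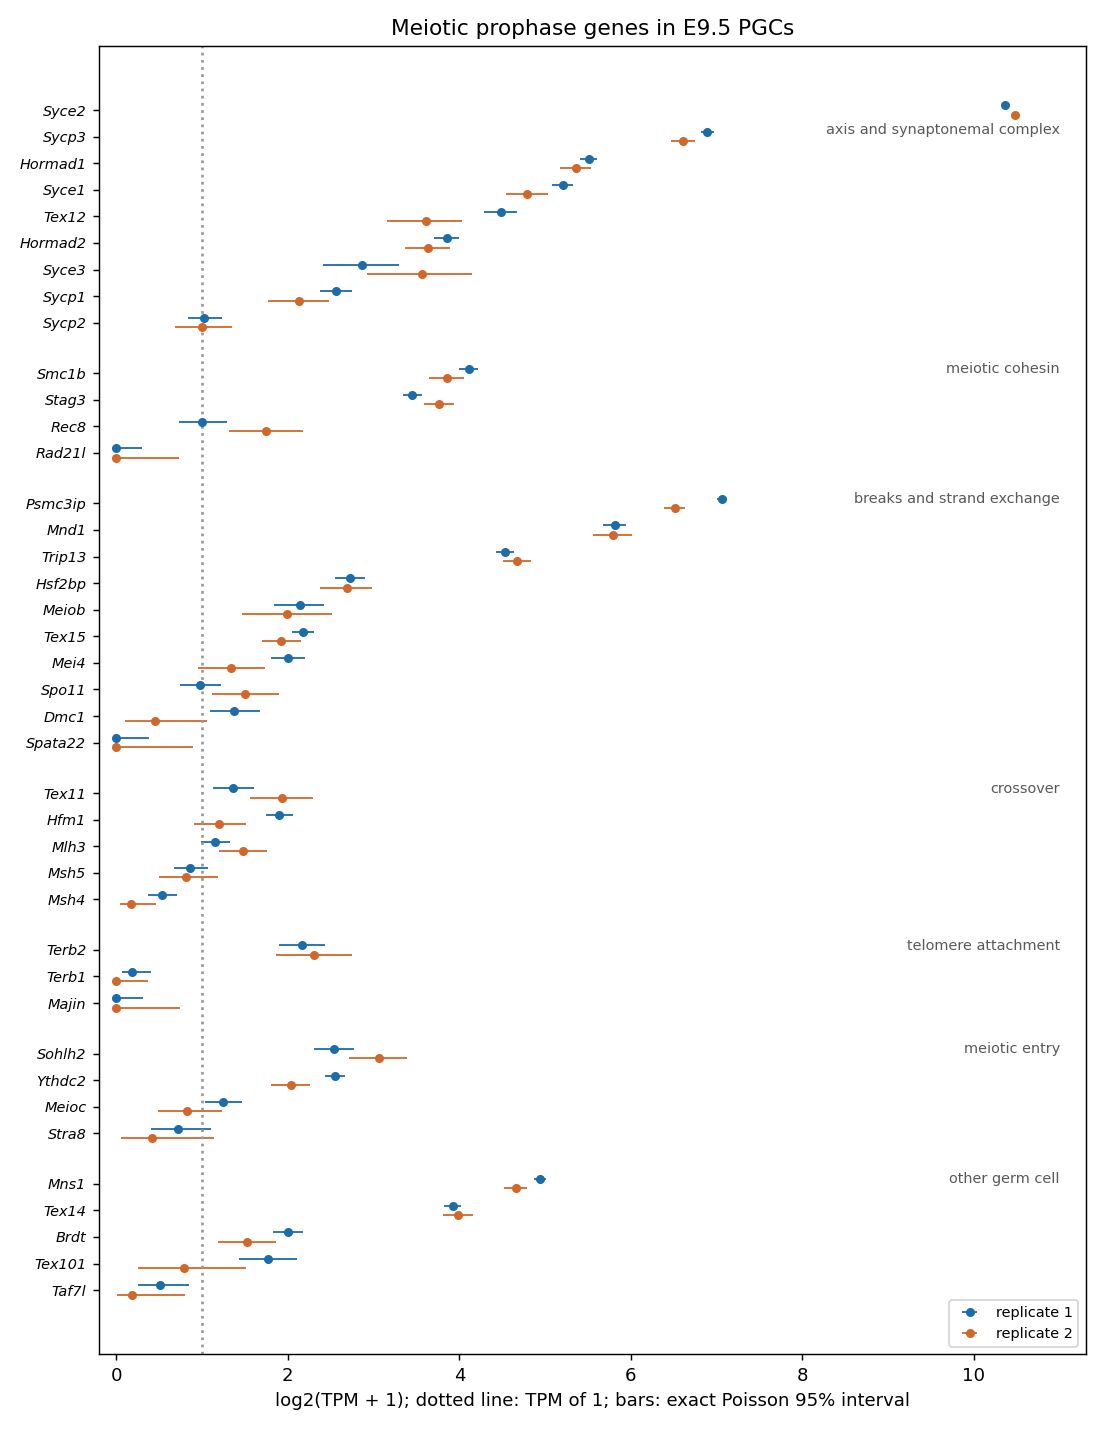
Level of each of the 40 meiotic prophase genes, grouped by role, as log2(TPM + 1) on the x axis. Points are the 2 libraries (blue, replicate 1; orange, replicate 2), bars are exact Poisson 95% intervals, and the dotted line is a TPM of 1. Syce2 lies far to the right of all others, and Rad21l, Spata22 and Majin lie at 0 in both libraries.

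The axis and synaptonemal complex genes were the most highly expressed role. All 9 were at 1 TPM or more in each library, compared with 60.0% of all genes. Replicates 1 and 2 gave medians of 4.48 and 3.63 on the log2(TPM + 1) scale. Syce2, a central element protein (chromosome 8, 84872111 to 84888221 on GRCm38, the build of all positions given), was at 1318 TPM in replicate 1 and 1424 TPM in replicate 2. It ranked 116th of all genes by mean and alone held 69.7% and 74.9% of the summed TPM of the set. These values rested on 24656 and 9366 reads, and no exon of another annotated gene overlapped its exons. Syce2 exceeded the next gene of the set 9.93-fold in replicate 1 and 15.8-fold in replicate 2.

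Sycp3, a lateral element protein that builds the chromosome axis (chromosome 10, 88459569 to 88473236), was at 118 and 96.5 TPM. Its partner in the axis, Sycp2, was at 1.04 and 1.003 TPM, so that Sycp3 was 113-fold and 96.3-fold higher. Sycp1, which spans the gap between the paired axes, was at 4.91 and 3.36 TPM. In both libraries the intervals of these 3 genes were apart, from Sycp3 (111.7 to 124 and 87.4 to 106 TPM) through Sycp1 (4.19 to 5.72 and 2.40 to 4.58 TPM) to Sycp2 (0.792 to 1.34 and 0.612 to 1.55 TPM). The exons of Sycp3 share 660 of 1264 bases with Chpt1 on the opposite strand, and Chpt1 itself was at 19.0 and 16.5 TPM.

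The other central element genes were lower than Syce2. Syce1 was at 35.9 and 26.6 TPM, and Syce3 was at 6.28 TPM (33 reads) and 10.8 TPM (20 reads). Tex12, which forms a complex with Syce2 in the central element, was at 21.3 and 11.2 TPM, 61.8-fold and 127-fold below Syce2. The HORMA-domain genes, whose proteins mark axes that have not yet synapsed, were both expressed. Hormad1 (chromosome 3, 95559677 to 95587671) was at 44.5 and 39.96 TPM and Hormad2 at 13.4 and 11.4 TPM, a ratio of 3.31 and 3.51.

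Meiotic cohesin was represented unevenly. Smc1b, the meiosis-specific SMC subunit, was at 16.2 and 13.5 TPM, and Stag3, the meiosis-specific STAG subunit, at 9.95 and 12.6 TPM. The kleisin subunits that close the ring were low or unseen. Rec8 was at 1.004 TPM (28 reads, interval 0.667 to 1.45) and 2.34 TPM (23 reads, 1.49 to 3.52). Rad21l had 0 reads in both libraries, which at a limit of 3 reads allows 0.190 and 0.541 TPM. Rad21l therefore lay below both other classes of subunit, and Rec8 lay below Smc1b in each library, 16.2-fold and 5.74-fold.

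Promoter sequences were read from RefSeq windows on GRCm38.p6, the assembly of mm10, which run from 250 bases before to 50 bases after an annotated start. A window was found for 33 of the 40 genes and for 10839 of the 18877 genes of the table. Motifs of factors known from the repression of germ line genes in other cells were searched on both strands: the E-box CACGTG, which is bound by MAX and its partners, and the E2F-type motif GCGGGAA, whose longer form GGCGGGAA overlaps it. CACGTG occurred in 8 of 33 meiotic genes (24.2%), compared with 11.4% of 10839 genes of the table and 8.09% of 27025 RefSeq genes. GCGGGAA occurred in 11 (33.3%), compared with 9.65% and 5.29%, and GGCGGGAA in 6 (18.2%), compared with 4.71% and 2.52%. The cAMP response element TGACGTCA occurred in 0 of 33, compared with 3.41% of the genes of the table. A gene was counted as holding a motif if any of its windows did. In the first window of each gene, the median GC content was 60.7% in the meiotic genes and 60.3% in the table. The median observed to expected CpG ratio of these windows was 0.713 and 0.750.

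Both motifs together occurred in 5 meiotic genes (15.2%), compared with 1.19% of the genes of the table. These were Syce2, Sycp3, Hormad1, Tex12 and Stag3, all of which were above a TPM of 5 in both libraries. Of the 15 genes with a window and such a level, 8 held GCGGGAA and 5 held CACGTG. Of the 18 others, 3 held each motif (GCGGGAA in Meioc, Msh5 and Spata22, CACGTG in Sycp1, Brdt and Taf7l) and 0 held both. These are matches of letters, not sites of binding, and the split at a TPM of 5 was made after the values were seen. The same split was not made for all genes of the table, so whether it is particular to meiotic genes was not tested.

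**Figure D2:**
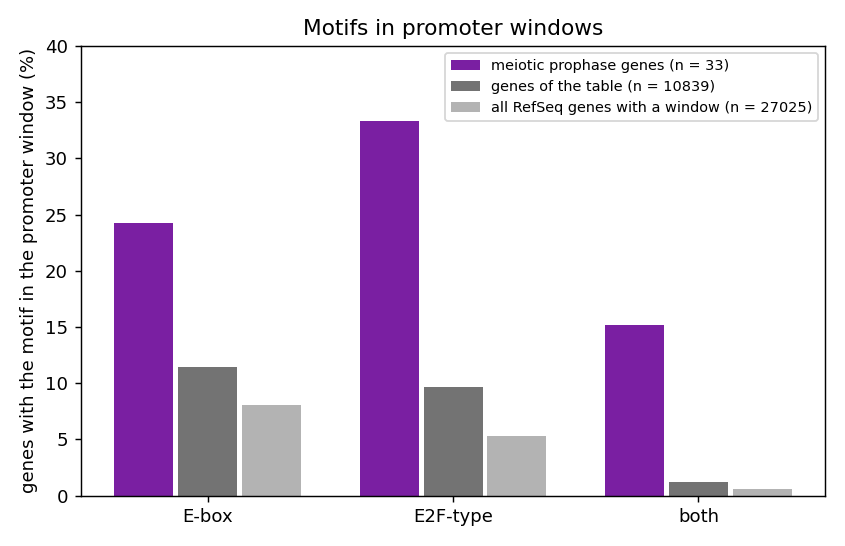
Share of genes, in percent on the y axis, whose promoter window holds the E-box CACGTG, the E2F-type motif GCGGGAA or both (x axis), for the 33 meiotic prophase genes with a window and a row, 10839 genes of the table and 27025 RefSeq genes. The bar of the meiotic genes is the highest for each motif, at 24.2%, 33.3% and 15.2%.

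The windows of the 5 genes with both motifs are shown 5′ to 3′ so that the spacing of the motifs can be seen, with matched letters in capitals (TTCCCGC is GCGGGAA on the opposite strand). The windows of Stra8 and Dmc1, low genes described below, hold neither CACGTG nor GCGGGAA and are shown for contrast. Other forms of E2F motif, apart from GGCGGGAA, were not searched. Lack of both motifs was not confined to low genes, since Psmc3ip, Mnd1 and Syce1 also hold neither. At least 1 of the motifs was found in 8 of the 15 genes at a TPM of at least 5 (53.3%) and in 6 of the 18 others (33.3%). Both shares were above the 19.9% of all genes of the table with a window. Where a gene has more than 1 window, the window with most matches is given.
Syce2 (chr8:84872008-84872307, plus strand): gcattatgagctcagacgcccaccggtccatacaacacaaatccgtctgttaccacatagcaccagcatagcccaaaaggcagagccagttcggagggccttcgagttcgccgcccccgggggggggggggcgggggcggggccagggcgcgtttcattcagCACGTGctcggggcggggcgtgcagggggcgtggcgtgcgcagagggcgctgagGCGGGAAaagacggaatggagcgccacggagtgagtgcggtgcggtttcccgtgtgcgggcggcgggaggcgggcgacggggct
Sycp3 (chr10:88459337-88459636, plus strand): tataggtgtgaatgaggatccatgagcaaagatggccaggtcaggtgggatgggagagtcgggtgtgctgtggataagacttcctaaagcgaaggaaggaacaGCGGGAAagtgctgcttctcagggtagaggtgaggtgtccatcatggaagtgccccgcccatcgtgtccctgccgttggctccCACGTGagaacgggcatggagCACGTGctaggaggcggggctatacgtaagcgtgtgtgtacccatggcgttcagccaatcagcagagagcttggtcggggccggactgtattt
Hormad1 (chr3:95559427-95559726, plus strand): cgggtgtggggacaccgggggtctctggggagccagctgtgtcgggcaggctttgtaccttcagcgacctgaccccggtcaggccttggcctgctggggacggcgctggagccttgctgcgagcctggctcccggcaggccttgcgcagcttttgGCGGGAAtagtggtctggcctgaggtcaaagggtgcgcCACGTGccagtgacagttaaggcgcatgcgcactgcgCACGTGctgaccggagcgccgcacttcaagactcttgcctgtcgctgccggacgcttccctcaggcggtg
Tex12 (chr9:50561219-50561518, minus strand): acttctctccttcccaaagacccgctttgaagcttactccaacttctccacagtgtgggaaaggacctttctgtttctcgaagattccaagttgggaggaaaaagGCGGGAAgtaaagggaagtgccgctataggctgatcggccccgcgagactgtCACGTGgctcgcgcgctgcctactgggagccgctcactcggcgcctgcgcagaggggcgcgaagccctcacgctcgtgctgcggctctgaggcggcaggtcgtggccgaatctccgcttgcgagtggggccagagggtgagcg
Stag3 (chr5:138280259-138280558, plus strand): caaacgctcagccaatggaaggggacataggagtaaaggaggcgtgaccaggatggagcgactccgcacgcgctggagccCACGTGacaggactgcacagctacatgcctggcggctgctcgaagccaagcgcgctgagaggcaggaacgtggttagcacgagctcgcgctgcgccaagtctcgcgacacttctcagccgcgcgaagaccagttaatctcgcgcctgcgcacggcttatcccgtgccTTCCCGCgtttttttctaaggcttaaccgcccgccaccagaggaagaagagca
Stra8 (chr6:34920698-34920997, plus strand): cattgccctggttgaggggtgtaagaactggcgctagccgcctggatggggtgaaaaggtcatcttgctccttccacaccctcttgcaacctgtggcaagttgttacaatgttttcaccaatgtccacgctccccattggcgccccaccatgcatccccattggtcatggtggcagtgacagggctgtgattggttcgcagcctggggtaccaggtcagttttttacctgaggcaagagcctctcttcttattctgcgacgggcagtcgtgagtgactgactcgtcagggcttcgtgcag
Dmc1 (chr15:79605060-79605359, minus strand): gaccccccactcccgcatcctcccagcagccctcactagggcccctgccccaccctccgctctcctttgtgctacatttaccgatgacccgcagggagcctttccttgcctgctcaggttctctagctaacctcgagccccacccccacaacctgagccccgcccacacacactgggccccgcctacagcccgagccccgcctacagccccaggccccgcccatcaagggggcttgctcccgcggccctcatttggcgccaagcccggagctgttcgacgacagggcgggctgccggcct

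Positions were counted from the RefSeq start of the window shown as base 0. CACGTG began at position -88 in Syce2, at -64 and -43 in Sycp3, at -57 and -20 in Hormad1, at -93 in Tex12 and at -170 in Stag3. GCGGGAA began at -34, -147, -95, -145 and -3 in the same genes. Sycp3 and Hormad1 each held a pair of E-boxes, and in both genes the E2F-type motif lay farther from the start than either E-box. In Syce2 and Stag3 the matches lay inside the annotated gene, downstream of its first base (84872111 and 138280240). The other window of Syce2 (84871861 to 84872160) does not reach the matches shown.

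Of the 10 recombination genes, 3 were above 20 TPM in both libraries and the other 7 were below 6 TPM. Psmc3ip (chromosome 11, 101091823 to 101095436) and Mnd1 (chromosome 3, 84087933 to 84155786) encode partners of a complex that helps recombinases invade the homologous DNA. Psmc3ip was at 133 TPM in replicate 1 and 90.3 TPM in replicate 2, and Mnd1 at 55.1 and 54.4 TPM. Psmc3ip thus exceeded Mnd1 by 2.41-fold and 1.66-fold. The exons of Psmc3ip share 385 of 1818 bases with Mlx on the opposite strand, at 10.1 and 7.93 TPM. Trip13, an ATPase that removes HORMA-domain proteins from synapsed axes and also acts in the mitotic spindle checkpoint, was at 22.2 and 24.5 TPM.

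The recombinase that this pair serves in meiosis was much lower. Dmc1 was at 1.60 TPM with 37 reads in replicate 1 and 0.369 TPM with 3 reads in replicate 2, and its intervals were apart (1.13 to 2.20 and 0.0760 to 1.08 TPM). Spo11, which makes the meiotic DNA breaks, was at 0.966 TPM (36 reads) and 1.83 TPM (24 reads), with overlapping intervals (0.676 to 1.34 and 1.17 to 2.72 TPM). Mei4, another break formation factor, was at 3.01 and 1.52 TPM with intervals apart. Hsf2bp, a meiotic recombination factor, was at 5.63 and 5.43 TPM, and Tex15 was at 3.52 and 2.80 TPM. Meiob, a protein that binds single-stranded DNA, was at 3.397 and 2.99 TPM, whereas its partner Spata22 had 0 reads in both libraries. For Spata22, 1025 of 1274 exonic bases are shared with Gm49340 on the same strand, so reads there could be assigned to either gene or to none, and the value is uncertain.

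Crossover genes had means of 0.286 to 2.19 TPM, and 3 of 5 were at 1 TPM or more in each library, compared with 60.0% of all genes. Their medians on the log2(TPM + 1) scale were 1.15 and 1.20, where those of all genes were 1.89 and 1.85. Msh4 and Msh5 encode the partners of a complex that stabilises crossover intermediates. Msh4 was at 0.442 TPM (29 reads) and 0.130 TPM (3 reads), and Msh5 at 0.819 TPM (43 reads) and 0.758 TPM (14 reads). The intervals of Msh4 (0.296 to 0.635 and 0.0268 to 0.380 TPM) and Msh5 (0.592 to 1.103 and 0.414 to 1.27 TPM) overlapped in replicate 1 and were apart in replicate 2. The helicase gene Hfm1 was at 2.74 and 1.30 TPM, the X-linked Tex11 at 1.57 and 2.81 TPM, and the mismatch repair gene Mlh3 at 1.23 and 1.78 TPM.

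Majin, Terb1 and Terb2 encode the subunits that together tie meiotic telomeres to the nuclear envelope, but only Terb2 reached a TPM of 1. Terb2 was at 3.48 TPM (70 reads) and 3.96 TPM (28 reads). Terb1 had 5 reads in replicate 1 (0.140 TPM) and 0 in replicate 2, where a limit of 3 reads allows 0.239 TPM. Majin had 0 reads in both, which allows 0.192 and 0.547 TPM. The interval of Terb2 (2.71 to 4.40 and 2.63 to 5.72 TPM) lay above those of both partners in each library.

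Genes that control entry into meiosis differed in level. Of the 4, 2 were at 1 TPM or more in both libraries, compared with 60.0% of all genes. Their median was near that of all genes in replicate 1 (1.89 on the log2(TPM + 1) scale) and below it in replicate 2 (1.43). Stra8, the retinoic acid-induced entry factor (chromosome 6, 34920163 to 34939344), was at 0.642 TPM with 11 reads (0.320 to 1.15) and 0.332 TPM with 2 reads (0.0402 to 1.20). Meioc and Ythdc2 encode partners that control RNA in cells entering meiosis. Meioc was at 1.37 and 0.778 TPM, and Ythdc2 at 4.85 and 3.10 TPM with intervals apart. Sohlh2, a transcription factor of early oocytes and spermatogonia, had the highest mean of these genes (6.07 ± 1.79 TPM, SD, n = 2), at 4.81 TPM (108 reads) and 7.34 TPM (58 reads), and in replicate 1 it lay slightly below Ythdc2. Its intervals overlapped between the libraries (3.94 to 5.80 and 5.57 to 9.49 TPM).

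Of the remaining germ cell genes, Mns1, a structural protein of sperm flagella and cilia, was at 29.7 and 24.3 TPM, and Tex14, which stabilises the bridges between germ cells, at 14.2 and 14.9 TPM. Of the exonic bases of Mns1, 53.0% (2842 of 5363) are shared with Tex9 on the opposite strand, which was at 17.7 and 13.8 TPM. Brdt, a testis bromodomain protein, was at 3.003 and 1.87 TPM. Tex101, a germ cell surface protein, was at 2.41 TPM (38 reads) and 0.722 TPM (4 reads), and the X-linked Taf7l at 0.422 TPM (9 reads) and 0.133 TPM (1 read). Of 10 spermatid genes listed, 2 were in the table, namely Tnp1 at 2.41 and 0 TPM and Spaca1 at 1.32 and 1.12 TPM. The others had no row, so their levels are not known.

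Meiotic cohesin genes were next set beside the related subunits of mitotic cohesin, in 5 pairs. The meiotic gene was lower in both libraries in 3 pairs and higher in both pairs with Stag3. The median difference on the log2(TPM + 1) scale was -0.64 and -0.98 in the libraries (-0.81 ± 0.245, SD, n = 2), which is that of Smc1b and Smc1a. The pairs share some genes, and the median over the 4 pairs in which both genes averaged 1 TPM or more was -0.17. In 4 pairs the intervals were apart in both libraries.

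The kleisins differed most. Rad21, the mitotic kleisin, was at 198 and 188 TPM. Rec8 was 198-fold and 80.3-fold lower, and Rad21l at least 1042-fold and 348-fold lower, at a limit of 3 reads per library.

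The SMC and STAG subunits were closer to their mitotic relatives. Smc1b was 1.59-fold and 2.05-fold below Smc1a (25.8 and 27.5 TPM). Stag3 was the exception in direction, with a log2 difference of 0.61 and 0.90 above Stag2 (6.18 and 6.25 TPM), with intervals apart in both libraries. Against Stag1 (8.68 and 6.98 TPM) the difference was 0.18 and 0.77, with intervals apart in 1 of the libraries. These differences depend on the summed exon lengths, which are 5733 bases for Stag3, 8273 for Stag2 and 11781 for Stag1. In reads, Stag3 (542 and 241) was above Stag2 (486 and 173) and below Stag1 (972 and 275). Which exons were in use was not tested.

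**Figure D3:**
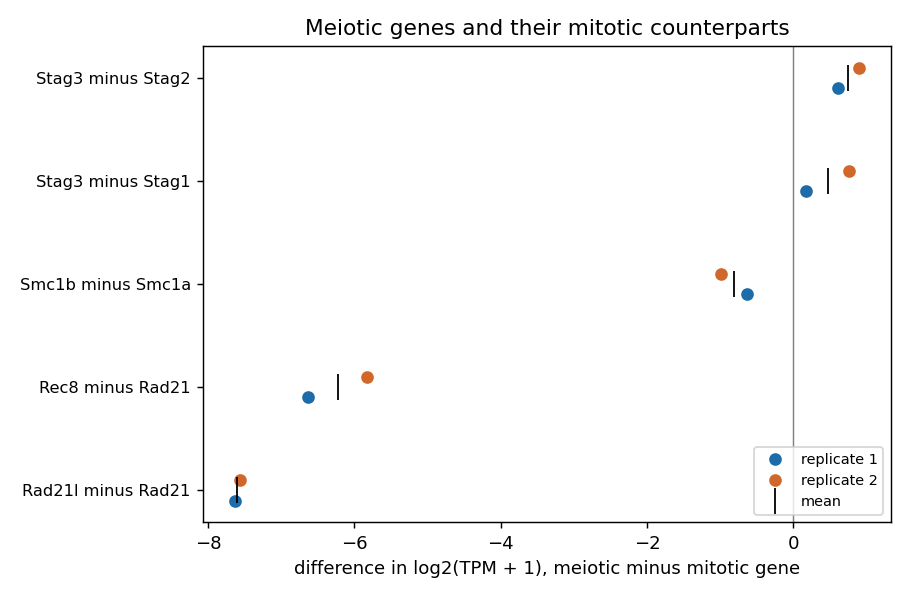
Difference in log2(TPM + 1) between a meiotic gene and its mitotic counterpart (x axis) for 5 pairs of cohesin genes (y axis). Points are the libraries (blue, replicate 1; orange, replicate 2) and the black bar is their mean. Of the pairs, 3 lie left of 0 in both libraries, and both pairs with Stag3 lie right of it. Rad21l had 0 reads, so its position reflects the pseudocount.

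Further meiotic genes outside the set were listed to place it in the pathway, and 22 of 26 had a row. Of these 22, 13 were at 1 TPM or more in each library, as were 60.0% of all genes, and 2 (Rnf212 among them) were at 0 in both. The median was 2.59 and 2.50 on the log2(TPM + 1) scale. The highest were Fkbp6, a co-chaperone needed for synapsis, at 112 and 80.4 TPM, Rec114, a break formation factor, at 63.4 and 75.2 TPM, Slc25a31, a germ cell ADP/ATP carrier, at 63.0 and 40.8 TPM, and Ccnb1ip1, a crossover regulator, at 39.1 and 35.3 TPM. Mei4, a partner of Rec114 in break formation, was at 3.01 and 1.52 TPM as given above.

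Both libraries gave a similar order of the meiotic genes. Spearman's rho of log2(TPM + 1) between them was 0.965 and Pearson's r 0.983 over the 40 genes, as a description across genes. Of the 39 neighbouring pairs in the order of mean level, 9 had ranges over the libraries that did not overlap, and in 4 the intervals were apart in both libraries. These 4 were all at the top: Syce2 above Psmc3ip, Sycp3 above Mnd1, Mnd1 above Hormad1 and Hormad1 above Syce1. Below Syce1, neighbours were not separated in both libraries.

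Between the libraries, 26 of 40 genes (65.0%) were lower in replicate 2, compared with 51.3% of all genes, and 11 were higher. The median difference (replicate 2 minus replicate 1) was -0.17 on the log2(TPM + 1) scale, compared with -0.013 over all genes. Since the libraries are replicates of 1 group, this describes these libraries. Differences of more than 2-fold on that scale were found in 0 of 40 genes, compared with 10.2% of all genes. The exact Poisson intervals of the libraries were apart in 12 genes (30.0%), compared with 24.7% of 18748 genes. Of these, 9 were lower in replicate 2 (among them Psmc3ip, Sycp3, Tex12, Hfm1 and Dmc1) and 3 were higher (Syce2, Stag3 and Rec8).

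As a plain ratio of TPM, 5 of 34 genes with at least 20 reads in total over both libraries (14.7%) differed more than 2-fold, compared with 15.9% of 13466 genes. A gene could pass this minimum through 1 library alone. Replicate 1 was higher for Dmc1 (4.34-fold), Msh4 (3.4-fold), Tex101 (3.34-fold) and Hfm1 (2.11-fold), and replicate 2 for Rec8 (2.34-fold). In replicate 2, the shallower library, 3 of them had few reads, namely 3 for Dmc1, 3 for Msh4 and 4 for Tex101. Of the 40 genes, 9 had fewer than 10 reads in replicate 2 and 5 in replicate 1, a count not made for all genes. Tex101, Dmc1, Meioc and Spo11 reached a TPM of 1 in 1 library only. For each of these 4 genes, the interval of the higher library lay wholly above 1 TPM (replicate 2 for Spo11, replicate 1 for the others), and that of the other library included 1 TPM.

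**Figure D4:**
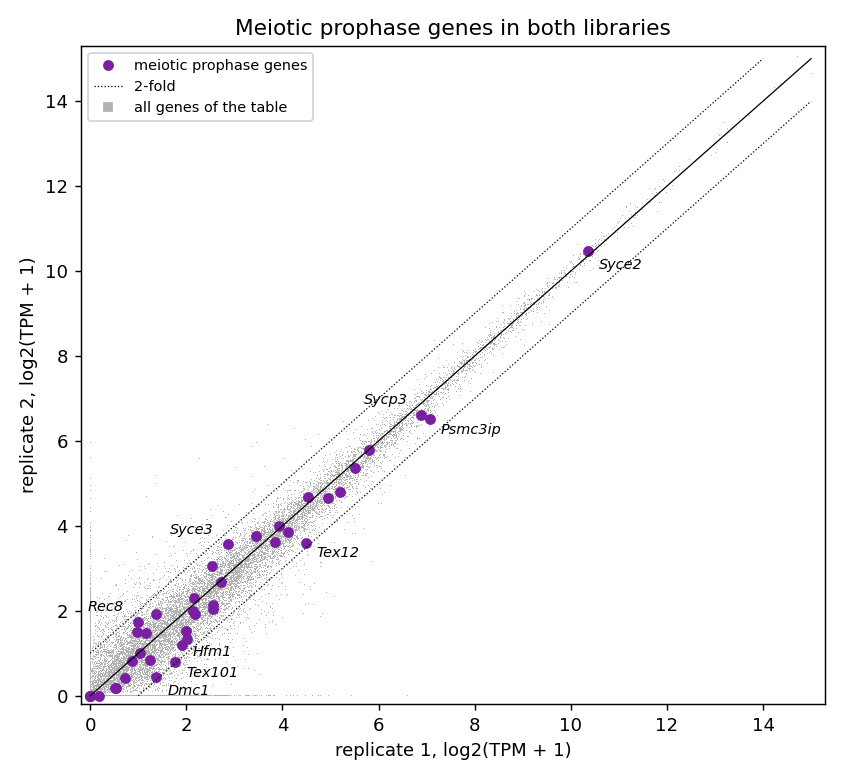
Level of every gene in replicate 1 (x axis) and replicate 2 (y axis), both as log2(TPM + 1). Purple points are the 40 meiotic prophase genes and grey points all 18877 genes of the table. The solid line marks equal levels and the dotted lines a 2-fold difference. All meiotic genes lie between the dotted lines, and 26 lie below the solid line.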

How the data were processed

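RNA-seq was performed on 2 libraries of E9.5 PGCs. The authors used Hisat2 for alignment to mm10 and featureCounts for counting, and deposited TPM for each gene and library. DESeq2 in R 3.4.2 served the study's comparisons, which are not used here, and the submitters' processing notes also list Bowtie2 and RSEM without a role. The annotation, strand handling and treatment of shared reads are not given in the sources used here. The methods name Smart-seq2 cDNA and the labels another library kit, so the chemistry is uncertain. TPM is relative: genes of very high abundance lower all others.

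Symbols were matched to GENCODE M21 on GRCm38, and 18748 had a single gene identifier. TPM multiplied by summed exon length gave whole multiples of 1 amount per library, taken as 1 read. Of values under 50 reads, 96.7% and 95.8% came within 0.02 of a whole number, where chance gives 4%. For Hsf2bp and Meiob the multiples were not whole, so their read numbers are approximate. Recovery was tested on simulated data for 18748 genes, with 100.0% of read counts recovered in both libraries. The simulation used whole reads and the same exon lengths as the recovery. It thus tested only whether the amount of 1 read is found, not the annotation or the handling of shared reads. Without molecular identifiers, reads are not separate molecules, so intervals and the limit of 3 reads for a zero cover counting error only.

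Only 1 group exists, so groups were not tested and no p-value was computed. The pseudocount was 1 TPM, on a scale that understates differences of low genes. The members and lists were chosen with earlier results of these data known. The rule named every member with a row, both genes of each cohesin pair and the 4 highest genes of the further meiotic list. Other planned pairs are not reported here. They were left out after values were known but not because of them, so the median over pairs covers cohesin only. Markers, repressors of germ line genes and oocyte genes were summarised by counts, and single genes named from these lists were outside that rule. Alternatives were other pseudocounts, thresholds and filters, other scalings of the libraries, and leaving out each replicate. Python 3.11.15, numpy 2.4.6, pandas 2.3.3, scipy 1.17.1 and matplotlib 3.10.9 were used.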

Additional observations from a re-analysis of the deposited data

How the results depend on the processing

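Of 18 alternatives for 4 results, 13 stayed within a set spread or within 1.5 times the count, 5 moved and 0 changed direction. With 2 libraries, leaving out 1 moves a mean by less than their SD. That outcome was thus fixed in advance for the set median and the difference from mitotic cohesin. For the difference between libraries the spread was 0.422, larger than the difference itself (-0.17), so its alternatives could hardly move. Counts and set medians cannot fall below 0, so they could not change direction. A detection threshold of 5 TPM lowered the count of detected meiotic genes to 15, and the share of all genes at that threshold was not computed. The median level of the set was 1.70 with a pseudocount of 0.1 TPM, 2.62 over the 31 genes averaging 1 TPM or more, and 2.22 after rescaling without genes of under 200 exonic bases, where the median of all genes was 1.46, 2.91 and 2.08. The set median thus lay above that of all genes except among genes averaging 1 TPM or more. The median difference from mitotic cohesin was -0.85 with a pseudocount of 0.1 TPM and -0.17 over the 4 pairs in which both genes averaged 1 TPM or more. Without replicate 1 or replicate 2 the number detected was 29 to 31, the median 1.96 to 2.15 and the difference from mitotic cohesin -0.98 to -0.64. The alternative without the 6 members whose exons overlap another gene was chosen after seeing the data. No paired analysis was possible because there is 1 group. Depth limits the 9 genes with fewer than 10 reads in replicate 2.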

Other observations

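Repressors of germ line genes were listed beside the meiotic set, and 14 of 15 were at 1 TPM or more in each library, compared with 60.0% of all genes. Replicates 1 and 2 gave medians of 3.01 and 2.46 on the log2(TPM + 1) scale. Their means ranged from 0.640 to 130.4 TPM. The exception, named after its values were seen, was the Polycomb gene Ring1 at 0.357 and 0.922 TPM. Of 10 growing oocyte genes, 1 was in the table, Figla, with 0 reads in both libraries.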
